A study of Arabidopsis thaliana with 12 samples.

Results

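The comparison described here sets leaves of the Arabidopsis thaliana rdm4 mutant against those of the wild type (WT) after 48 h of chilling at 4 °C. Its members are the 2 arrays labelled rdm4 at 48 h and the 2 arrays labelled WT at 48 h, chosen by their titles, out of 12 arrays in all. The remaining 8 arrays hold both genotypes before chilling (0 h) and after 3 h, 2 of each. All plants were 2-week-old seedlings, raised under 16 h of light at 23 °C and 8 h of dark at 18 °C, on plates of at least 30 seedlings. Leaf RNA whose integrity number was 7.5 or more was hybridised to Affymetrix ATH1 arrays, on which a probe set is a group of short probes for 1 transcript. The titles call the WT C24, while the source names and the ecotype field say Col. The genotype field of the arrays titled rdm4 names 35S::RDM4, an overexpression construct, and no label names the mutant allele. In both 48 h groups the free-text description of replicate 2 speaks of 3 h, against its title and source name, and the replicate 2 descriptions at 0 h and 3 h differ from their titles too. Groups follow the titles, whose genotype, time and replicate number the source names repeat. The RDM4 transcript was not analysed here, so no gene checks the genotype labels, and "WT" and "rdm4" below mean the arrays so labelled. Per the labels the replicates came from different growth chambers, and an unchilled control of the same age as the 48 h plants was not among the arrays.

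RDM4 is a protein that associates with RNA polymerase II and with the plant-specific polymerases of RNA-directed DNA methylation, the pathway by which small RNAs guide methylation to transposons and repeats. Chilling of Arabidopsis induces CBF transcription factors within hours, and these activate COR genes, whose products protect membranes and proteins. Longer exposure also alters sugar, flavonoid, photosynthesis and defence transcripts. The titles and the series name put the question of how far the cold response depends on RDM4, and 48 h is the late time of the series.

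After 48 h of chilling the most strongly shifted transcripts were higher in rdm4. They included genes of calcium sensing and immunity such as CML37 and WRKY53, the zinc finger factor gene STZ, cell wall genes led by XTH18, and the stress genes BZIP60 and Hsp70-2. Lower in rdm4 were the plant defensin genes PDF1.2b and PDF1.2, the jasmonate methyltransferase gene JMT, and the sucrose phosphate synthase gene ATSPS4F. So were 4 of 6 named cold-regulated effector genes, against 17.4% lower over all named genes. Of 14 SWEET sugar transporter genes 5 were higher (35.7%) and 2 lower (14.3%), against 14.5% and 17.4% over all named genes. The effector differences were small, near 0.4 on the log2 scale, against differences above 2 for CML37, WRKY53, STZ and XTH18. COR15A, an effector, lay near the top of the arrays' range. CML37 and WRKY53 were among the dimmest 30% of probe sets in WT, so sizes are hard to compare for these 3 genes.

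Of 22746 probe sets tested, 7971 (35.0%) differed between the genotypes at an adjusted p under 0.05 (limma, Benjamini-Hochberg), which is called a call from here on. Of these, 3640 (16.0%) were higher in rdm4 and 4331 (19.0%) lower. Larger differences leaned the other way: 545 probe sets (2.4%) were called and at least 2-fold higher in rdm4, and 184 (0.809%) were lower by as much. Over the 13355 genes that the annotation names singly, 31.9% were called, 1936 higher (14.5%) and 2321 lower (17.4%). A 2-fold difference was reached by 273 of the higher genes (2.04%) and 89 of the lower ones (0.666%). The log2 differences were otherwise narrow, with an SD of 0.42 over all probe sets, a median of -0.003 and 86.8% of values within 0.5 of 0. The 99th percentile was 1.52 and the 1st was -0.96. With only 2 arrays a group, the groups did not overlap for 66.3% of all probe sets and 63.8% of named genes, so that lack of overlap alone says little. With the array medians set equal, calls numbered 4007 higher and 3977 lower, and the 2-fold counts were then 567 and 171. With 2 seedling samples a group, p-values and SEs use a spread pooled over the replicates of all 12 arrays, and they measure spread between such samples only. In whole leaves fewer cells of a type and less RNA per cell cannot be told apart.

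**Figure D1:**
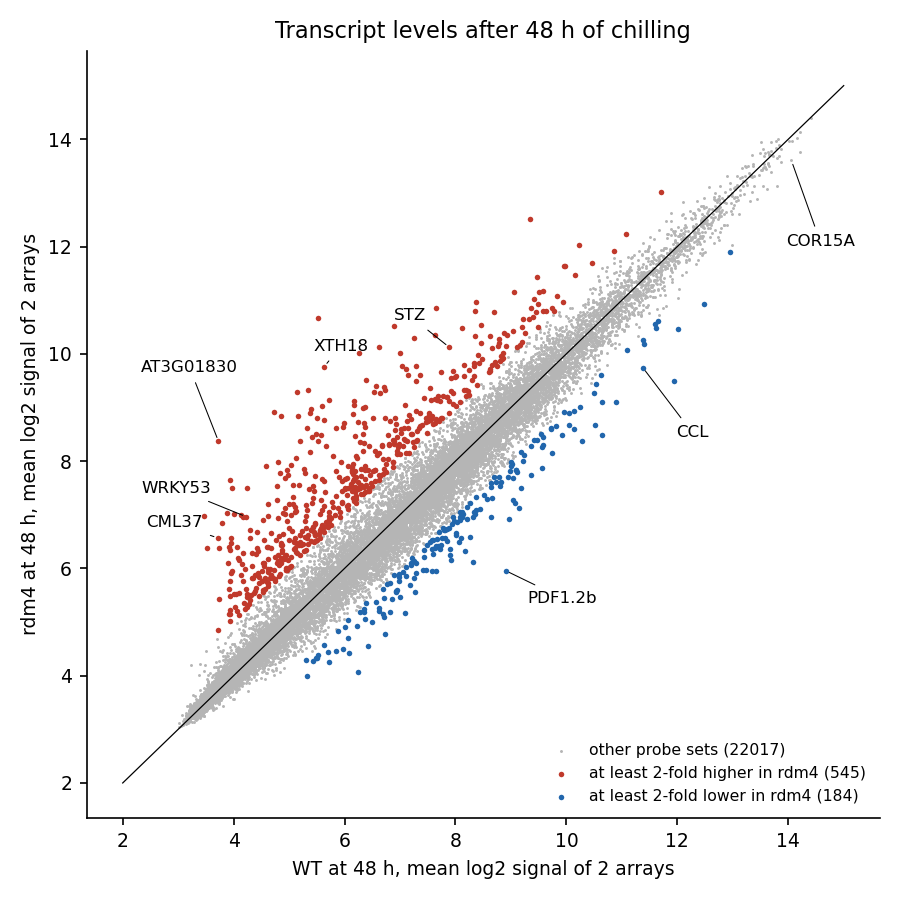
Mean log2 signal of each probe set in WT (x axis) and in rdm4 (y axis) after 48 h of chilling, 2 arrays each. Red and blue points mark the 545 and 184 probe sets called and at least 2-fold higher or lower in rdm4, the line marks equal levels, and the red points reach farther from it than the blue.

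The replicates at 48 h were close, with r = 0.998 across probe sets in rdm4 and 0.999 in WT, and an SD of their log2 difference of 0.16 and 0.13. Signs of RNA quality overlapped between the groups: the log2 excess of 3′ over 5′ signal was 0.52 to 0.57 in WT and 0.53 to 0.61 in rdm4 for GAPDH, and 0.60 to 0.62 against 0.57 to 0.64 for actin. Of 18 leaf mesophyll markers the annotation names 4, RCA, LHCB4.1, PRK and HPR, all at or above the 99.1th percentile of signal on each of the 48 h arrays. The log2 of their summed signal ranged from 15.24 to 15.25 in WT and from 15.32 to 15.33 in rdm4. HPR was called higher in rdm4 by 0.33 (limma, adjusted p = 0.00159), and the others were not called. Of 11 root markers 3 are named, and the log2 of their summed signal was 11.69 in both WT arrays and 11.62 to 11.68 in rdm4. Most of that signal was from PYK10, at 11.62 in WT and 11.57 in rdm4. PYK10 lay between the 97.8th and 97.9th percentile on each 48 h array. Flower and seed markers are represented by CLV3 alone, between the 11.7th and 16.8th percentile, and vascular and epidermal markers by FMA, which was lower in rdm4 at -0.43 ± 0.08 (limma, adjusted p = 0.0015). The part of other cell types in the results was not tested.

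The largest differences at 48 h were upward in rdm4 and belong mostly to genes that the tables used here name by locus tag only, so that no role is given for them. AT3G01830 stood at log2 levels of 3.75 and 3.71 in WT and 8.14 and 8.59 in rdm4, a difference of 4.64 ± 0.12 (SE, 2 arrays a group; limma, adjusted p = 1.17e-10). Its WT level lay among the dimmest 30% of probe sets, where background was not measured, so the size of its difference is uncertain. AT1G66090 was at 4.65 and 4.79 in WT and at 8.86 and 8.97 in rdm4, a difference of 4.19 ± 0.09. AT2G32030, AT5G52760, AT1G19020, AT1G24140 and AT3G48640 were 3.63 to 3.98 higher in rdm4, and AT4G39670, AT2G20142, AT1G78410 and AT4G27280 were 3.22 to 3.43 higher. Lack of overlap between the groups was a condition for naming these 11 genes. A probe set with no single gene in the annotation had the largest difference of all, 5.14. Of the 545 probe sets at least 2-fold higher, 271 have no single gene, and 97 were dim in WT.

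Genes of calcium sensing went both ways by family, with 5 of 7 calmodulin-like genes higher and 5 of 15 genes of calmodulin-binding IQD proteins lower. CML37, a calmodulin-like calcium sensor gene, was at log2 levels of 3.65 and 3.78 in WT and at 6.54 and 6.60 in rdm4. It was dim in WT here and in both genotypes at 0 h. The difference was 2.85 ± 0.07 (limma, adjusted p = 7.88e-11). CML41 was at 6.22 and 6.07 in WT and 7.68 and 7.84 in rdm4, a difference of 1.61 ± 0.08. Of 7 genes whose symbols share the CML stem, 5 were called higher and 0 lower, with a median difference of 0.68, against 14.5% higher, 17.4% lower and a median of 0.00 over all named genes. The 5 included CML38 at 0.91, CML30 at 0.68 and CML23 at 0.40, and CML42 and CML43 were at 0.22 and 0.15 without a call. Of 15 IQD genes, which encode calmodulin-binding proteins, 5 were lower and 0 higher, with IQD24 and iqd21 both at -0.75. ACA.l, an autoinhibited calcium pump gene, was higher by 1.37 ± 0.10. SRC2, which encodes a C2 domain protein, was higher by 1.3 ± 0.07. In the stem of glutamate receptor-like channels, GLR, 4 of 8 were higher, led by ATGLR1.2 at 1.06, and 2 were lower. That count fell to 2 higher without WT replicate 2 or without rdm4 replicate 1, and 4 of the 8 are dim genes.

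The 3 named genes of the immunity list were also higher in rdm4. WRKY53, a transcription factor of leaf senescence and defence, was at log2 levels of 4.33 and 4.13 in WT and 6.77 and 7.16 in rdm4. Its groups lay more than 2 log2 units apart, at 2.73 ± 0.11 (limma, adjusted p = 3.87e-09), with a dim level in WT. SBT3.3, a subtilisin-like protease known from immune priming, was at 5.29 and 5.23 in WT and at 7.72 and 8.00 in rdm4, a difference of 2.6 ± 0.15. GRX480, a glutaredoxin that binds TGA factors of salicylic acid signalling, was at 5.62 and 5.56 in WT and 6.96 and 7.21 in rdm4. SAG101, a lipase-like partner of the immune regulator EDS1, was at 4.99 and 5.0 in WT and at 5.88 and 6.01 in rdm4. Those differences were 1.5 ± 0.10 and 0.95 ± 0.08. All 3 named members of the list of salicylic acid and immunity genes, WRKY53, GRX480 and SAG101, were thus higher, against 14.5% of all named genes. That list has 42 members, and the rest had no singly named probe set and were not analysed here.

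Other genes among the largest differences with a symbol have roles in defence or protein turnover. B120, a lectin-type receptor kinase gene, differed by 2.19 ± 0.09 from a dim WT level, WRKY6 by 1.65 ± 0.11, RING1, a RING-type ubiquitin ligase gene, by 1.44 ± 0.08, and SGT1A, a cochaperone of immune receptors, by 1.34 ± 0.08. WRKY6 stood at 6.28 and 5.99 in WT and 7.88 and 7.70 in rdm4, and SGT1A at 7.80 and 7.90 and at 9.09 and 9.29. BIK1, a receptor-associated kinase gene named here after its value was seen, was higher by 1.07. TET8, a tetraspanin gene, was at 9.37 and 9.35 in WT and 10.78 and 10.91 in rdm4. Other named WRKY genes differed less: WRKY22, WRKY47 and WRKY42 were at 0.06, -0.06 and -0.18 without a call, and the call of WRKY20 at -0.21 was lost without any 1 of the 4 arrays. Of 9 PUB genes, U-box ubiquitin ligases, 3 were higher (PUB24 at 1.11, PUB25 at 0.78 and PUB23 at 0.52) and 0 lower, which is 33.3% higher against 14.5% of all named genes. PUB24 was dim in WT. The SBT stem had 4 of 8 genes higher (50%) and 0 lower, which fell to 2 without WT replicate 2 or without rdm4 replicate 1, the 2 that remained in either case being SBT3.3 and ATSBT5.2.

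STZ, a zinc finger repressor induced by cold, salt and light stress, was among the clearest differences. Its log2 levels were 7.83 and 7.94 in WT and 10.12 and 10.12 in rdm4, none of them dim, and the difference was 2.24 ± 0.07 (limma, adjusted p = 2.47e-10). Also higher were BZIP60, Hsp70-2 and Fes1A, while 1 of 3 named heat shock genes was called. BZIP60, a factor of the unfolded protein response of the endoplasmic reticulum, was at 8.88 and 8.98 in WT and at 10.33 and 10.37 in rdm4, 1.42 ± 0.07 apart. Hsp70-2, a cytosolic HSP70 chaperone gene, was at 9.62 and 9.53 in WT and at 11.22 and 11.14 in rdm4. Fes1A, which encodes a factor that binds HSP70, was at 7.57 and 7.70 and at 9.09 and 9.21. These 2 genes were higher by 1.61 ± 0.07 and 1.51 ± 0.08. The other named heat shock genes, AT1G53540 and ATHSP22.0, were at 0.01 and 0.08 without a call. In the bZIP stem 3 of 14 genes were higher and 3 lower, 21.4% each, near the shares of 14.5% and 17.4% over all named genes.

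**Figure D2:**
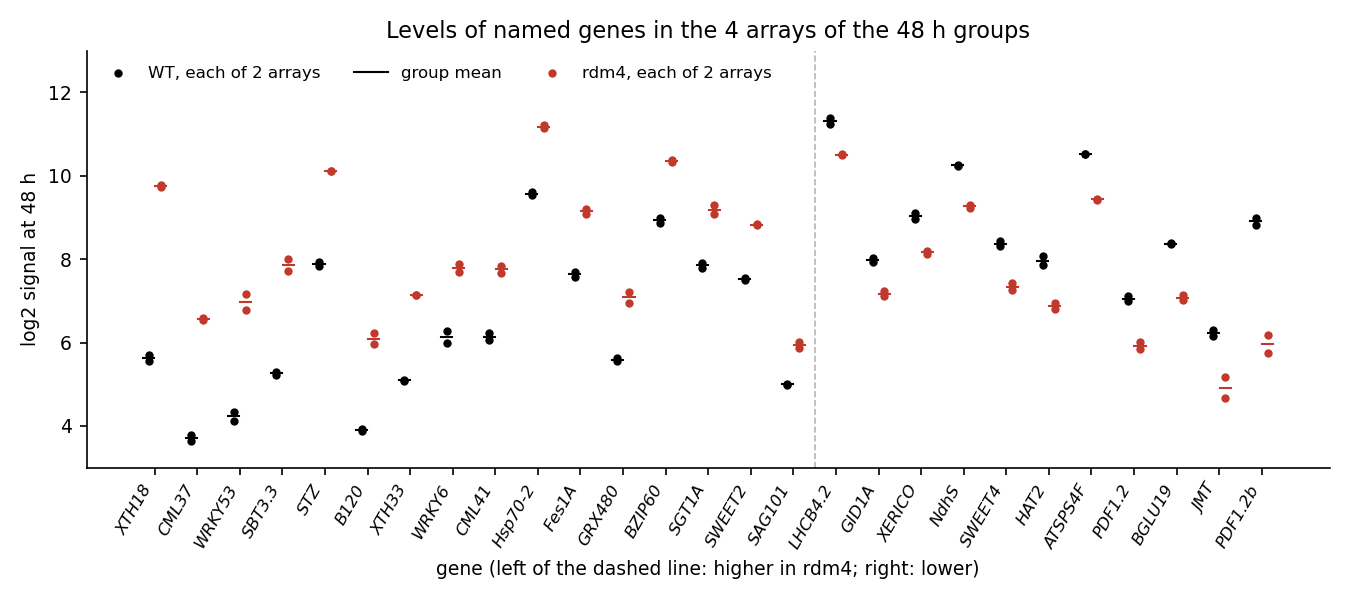
Log2 signal at 48 h of 27 named genes (x axis), with a point for each of 2 WT arrays (black) and 2 rdm4 arrays (red) and a bar at the group mean. The 16 genes left of the dashed line, from XTH18 to SAG101, were higher in rdm4 and the 11 on the right lower. Their groups do not overlap, which was a condition for naming genes by the size of their difference.

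Genes that remodel the cell wall were split. XTH18, a xyloglucan endotransglucosylase/hydrolase gene, was at log2 levels of 5.57 and 5.70 in WT and 9.74 and 9.78 in rdm4. Its difference of 4.13 ± 0.13 (limma, adjusted p = 3.82e-10) was the largest of any gene with a symbol. XTH33 was at 5.11 and 5.09 in WT and at 7.13 and 7.15 in rdm4, and XTH19 at 7.19 and 7.11 and at 8.52 and 8.73. XTH20 lay in the opposite direction, at 6.84 and 6.97 in WT and 6.2 and 6.11 in rdm4, a difference of -0.75 ± 0.09. In all 4 of 9 XTH genes were higher (44.4%) and 1 lower (11.1%), against 14.5% and 17.4% over all named genes. The fourth higher one, XTH16 at 0.46, lost its call without WT replicate 2 or rdm4 replicate 2 (limma, largest adjusted p = 0.0521), and 3 of the 9 are dim genes. EXLA1, an expansin-like gene, was at 6.03 and 6.10 in WT and 7.81 and 7.99 in rdm4, and the related EXLB1 was lower by -1.22 ± 0.07. Over 19 expansin genes 4 were higher (21.1%) and 6 lower (31.6%). Among the lower ones were EXPB1 at -0.91 and EXPA9 at -0.66, and without WT replicate 1 or rdm4 replicate 1 the lower ones were 4.

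The UGT, GSTU and VPS stems are described beside the shares over all named genes, 14.5% higher and 17.4% lower. In the UGT stem of glycosyltransferases, which attach sugars to hormones and secondary metabolites, 13 of 47 genes were higher (27.7%) and 8 lower (17%), the lower share being near that over all genes. UGT73C1 was at log2 levels of 7.98 and 7.91 in WT and 9.69 and 9.68 in rdm4, 1.74 ± 0.12 apart. UGT76D1, UGT84A1 and UGT71B6 were higher by 1.16, 1.04 and 1.03, and UGT71B6 was dim in WT. On the other side UGT73B1, UGT88A1 and UGT72B3 were at -0.96, -0.85 and -0.81. The GSTU stem of glutathione transferases, which conjugate glutathione to toxic compounds, had 6 of 11 genes higher (54.5%), led by GSTU23 at 1.15 and GSTU27 at 0.98, and 1 lower, GSTU22 at -0.64. That count was 3 without WT replicate 2 or rdm4 replicate 1, and 4 without either of the other arrays. Of 10 VPS genes, which act in vacuolar sorting, 5 were higher (50%), and this count was the same without any 1 array. They were VPS60.1 at 1.2, VPS2.1 at 0.51, VPS60.2 at 0.47, VPS24.1 at 0.35 and VPS46.2 at 0.30, whose proteins belong to or associate with the membrane-sorting complex ESCRT-III, while VPS9B was lower at -0.75.

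Sugar transporters of the SWEET family, which let sugars pass membranes down their gradient, went both ways. SWEET2, a vacuolar member, was at log2 levels of 7.51 and 7.56 in WT and 8.81 and 8.85 in rdm4. SWEET10 was higher by 1.24 ± 0.12, SWEET1 by 0.85 and SWEET11 by 0.36. In all 5 of 14 were higher (35.7%) and 2 lower (14.3%), against 14.5% and 17.4% over all named genes, so the lower share was near that over all genes. SWEET4 was at 8.43 and 8.32 in WT and at 7.26 and 7.42 in rdm4, a difference of -1.04 ± 0.08. SWEET13, a sucrose transporter gene, was lower by -0.62 ± 0.09. ATSPS4F, a sucrose phosphate synthase gene, was at 10.53 in both WT arrays and at 9.43 and 9.44 in rdm4. APL3, a subunit of the starch enzyme ADP-glucose pyrophosphorylase, was lower by -0.70 ± 0.11. SFP2 and SFP1, monosaccharide transporter genes, were lower by -1.07 and -0.91. On the list of sugar and starch genes, which holds SWEET1, SWEET4, SWEET11, SWEET13, ATSPS4F and APL3 among its 9 named members, 3 were higher (33.3%) and 4 lower (44.4%).

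Of 43 jasmonate and ethylene genes on the list 6 were named, and 2 of the 6 are dim genes. In rdm4 3 of them were lower and 0 higher, against 17.4% lower over all named genes. Among the 3 are the defensin genes PDF1.2b and PDF1.2, which may share probe signal, and this was not tested. PDF1.2b, a plant defensin gene under jasmonate and ethylene control, had the largest downward difference of all probe sets. Its log2 levels were 8.99 and 8.82 in WT and 6.18 and 5.74 in rdm4, a difference of -2.95 ± 0.15 (limma, adjusted p = 1.54e-08), although its probe set can also read near-identical defensin genes. PDF1.2 was at 6.99 and 7.11 in WT and 5.84 and 6.01 in rdm4. JMT, which methylates jasmonic acid, was at 6.16 and 6.30 in WT and 4.66 and 5.18 in rdm4. Differences of PDF1.2 and JMT were -1.13 ± 0.08 and -1.31 ± 0.15. The other members, EIN3, ORA47 and THI2.1, were at -0.03, 0.15 and 0.13 without a call. Another defensin gene, PDF2.1, was higher by 0.51 ± 0.10.

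Some genes with roles in growth or hormone signalling were among the largest downward differences with a symbol, but the fixed list of growth hormones and elongation had 1 of 2 named genes higher, EXLA1, and 1 lower, EXPA8 at -0.58. HAT2, a homeodomain-leucine zipper gene induced by auxin, was at log2 levels of 8.07 and 7.86 in WT and 6.80 and 6.95 in rdm4. IAA29, an Aux/IAA repressor gene of auxin signalling, was lower by -0.93 ± 0.13, and IAA18 was higher by 0.49, with the other 5 of 7 IAA genes not called. GID1A, a gibberellin receptor, was at 7.93 and 8.03 in WT and 7.11 and 7.23 in rdm4. XERICO, a RING protein gene that promotes abscisic acid accumulation, was at 9.10 and 8.97 in WT and 8.13 and 8.20 in rdm4, and BRH1, a RING gene responsive to brassinosteroids, was lower by -0.89 ± 0.07. GIS, a zinc finger gene of trichome development, was at -0.94 ± 0.12. BGLU19, a beta-glucosidase gene, was at 8.36 and 8.38 in WT and at 7.15 and 7.01 in rdm4, a difference of -1.29 ± 0.08. Of 24 genes described as cytochromes P450, 7 were lower (29.2%, against 17.4% of all named genes), led by CYP71B26 at -1.13 and CYP78A9 at -1.12. Only CYP71B23 was higher (4.17%, against 14.5%), at 1.88 ± 0.08. SMZ and SNZ, related AP2-type repressors of flowering, lay on opposite sides at 1.12 and -0.97.

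The remaining large downward differences belong to locus tags with no symbol. AT3G62550 was at log2 levels of 11.93 and 11.94 in WT and 9.53 and 9.47 in rdm4, a difference of -2.44 ± 0.06 (limma, adjusted p = 7.88e-11) between levels well above the dim range. AT3G07310 and AT1G73600 were at -2.20 and -2.16, and AT1G31690 at -2.04, with its other probe set at -1.96. AT5G13240, AT2G39920, AT5G48490, AT1G30820, AT1G76110, AT4G14270, AT5G57340, AT1G06540 and AT1G66900 lay between -2.01 and -1.62, of which AT1G06540 was dim in rdm4. CCL, at 11.37 and 11.39 in WT and 9.70 and 9.79 in rdm4, was lower by -1.63 ± 0.07.

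The cold-regulated effector genes differed little at 48 h. COR15A, whose product protects chloroplast membranes during freezing, was at log2 levels of 14.05 and 14.06 in WT and 13.61 and 13.60 in rdm4, a difference of -0.45 ± 0.08 (limma, adjusted p = 6.49e-04) near the top of the arrays' range. COR15B was at 13.56 and 13.53 against 13.13 and 13.12, and the dehydrin gene LTI30 at 12.84 and 12.85 against 12.37 and 12.44. With AT4G33980 at -0.50 these were the 4 lower members of 6 named, on a list of 32. The dehydrin gene COR47 was the 1 higher, by 0.36 ± 0.07, and COR27, a gene of cold and clock control, was at -0.12 ± 0.07 without a call (limma, adjusted p = 0.198). Of 24 cold regulators on their list only 2 were named, STZ and AT3G55580, and both were higher, AT3G55580 by 0.40 ± 0.10. No CBF gene is among the named ones, and the rest of that list was not analysed here. Against all 13355 genes, 4 of 6 lower compares with 17.4%. The clock gene GI was at -0.26 ± 0.07, a call lost without WT replicate 2 or rdm4 replicate 2 (limma, largest adjusted p = 0.0777).

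Flavonoid genes were mostly higher in rdm4, by less than 1 log2 unit. UGT78D2, a flavonol glycosyltransferase gene, was at log2 levels of 10.61 and 10.55 in WT and 11.45 and 11.46 in rdm4, and HYH, a bZIP factor gene of light signalling, at 9.65 and 9.71 and at 10.41 and 10.51. The differences were 0.88 ± 0.07 and 0.78 ± 0.10. UF3GT, an anthocyanin glycosyltransferase gene, was higher by 0.71 ± 0.07, and DFR, dihydroflavonol reductase, by 0.46 ± 0.10, a call lost without rdm4 replicate 2 (limma, adjusted p = 0.0536). In all 6 of 8 named members were higher (75%), against 14.5% of all named genes. The 1 lower member was the chalcone isomerase-like gene CHIL at -0.40 ± 0.10, a call lost without WT replicate 2 (limma, adjusted p = 0.0522). The list's median was 0.46.

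Of 7 named photosynthesis genes 2 were higher (28.6%) and 1 lower (14.3%), with a median of 0.05. Over all named genes 14.5% were higher and 17.4% lower. LHCB4.2, a minor light-harvesting protein gene, was at log2 levels of 11.38 and 11.24 in WT and 10.52 and 10.49 in rdm4, a difference of -0.80 ± 0.07, while its paralog LHCB4.3 was at 9.21 and 9.18 against 10.21 and 10.24, a difference of 1.03 ± 0.07. LHCB4.1, RCA, ATPC1 and PSAN were between -0.04 and 0.12 without a call, and PSAE-1 was the other higher one at 0.23. NdhS, a subunit of the chloroplast NDH complex, was lower by -0.99 ± 0.07. On the reactive oxygen list the ascorbate peroxidase genes TAPX and SAPX were lower at -0.51 ± 0.07 and -0.44 ± 0.08, and the glutathione reductase gene GR was at -0.12 without a call. The call of the other glutathione reductase gene GR1 at -0.22 was lost without any 1 of the 4 arrays, which left 2 of 4 named genes of the reactive oxygen list in each case. Of 69 plastid-encoded genes 4 were higher and 2 lower, with a median of -0.21. These counts were unstable, at 5 and 0 without WT replicate 1, 1 and 3 without WT replicate 2, 3 and 9 without rdm4 replicate 1, and 1 and 3 without rdm4 replicate 2. The 3 named reference genes, PEX4, AT2G28390 and AT4G34270, were at 0.06, -0.15 and 0.16 with no call.

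Subunit genes of nuclear RNA polymerases, among them polymerase II with which RDM4 associates, were called in both directions. NRPC1, which encodes the largest RNA polymerase III subunit, was at log2 levels of 4.36 and 4.32 in WT, a dim level, and 6.10 and 6.01 in rdm4, a difference of 1.71 ± 0.09. The second subunit, NRPC2, was at 7.81 and 7.79 in WT and 7.54 and 7.28 in rdm4, a difference of -0.39 ± 0.08. NRPB9A, NRPB7 and NRPB6A, small subunits of RNA polymerase II or shared ones, were higher by 0.86 ± 0.10, 0.44 ± 0.07 and 0.39 ± 0.07. In all 4 of 8 on the list were higher (50%) and 2 lower (25%), against 14.5% and 17.4% over all named genes. NRPA1 at -0.34 lost its call without rdm4 replicate 2 (limma, adjusted p = 0.0518). Outside the list, NRPB6B was called higher at 0.27 and NRPB9B lower at -0.28. That lower call of the NRPB stem was lost without WT replicate 1, WT replicate 2 or rdm4 replicate 1. Of 33 genes on the RNA-directed DNA methylation list only 1 was named, the DNA demethylase gene DME, at 0.28 ± 0.09. Its call was lost without WT replicate 1, WT replicate 2 or rdm4 replicate 1. The rest of that list had no singly named probe set, so it says little of the pathway. Remodelling genes of the CHR stem, chr31 among them, are not on it, and 2 of these 8 were higher (25%) and 0 lower.

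**Figure D3:**
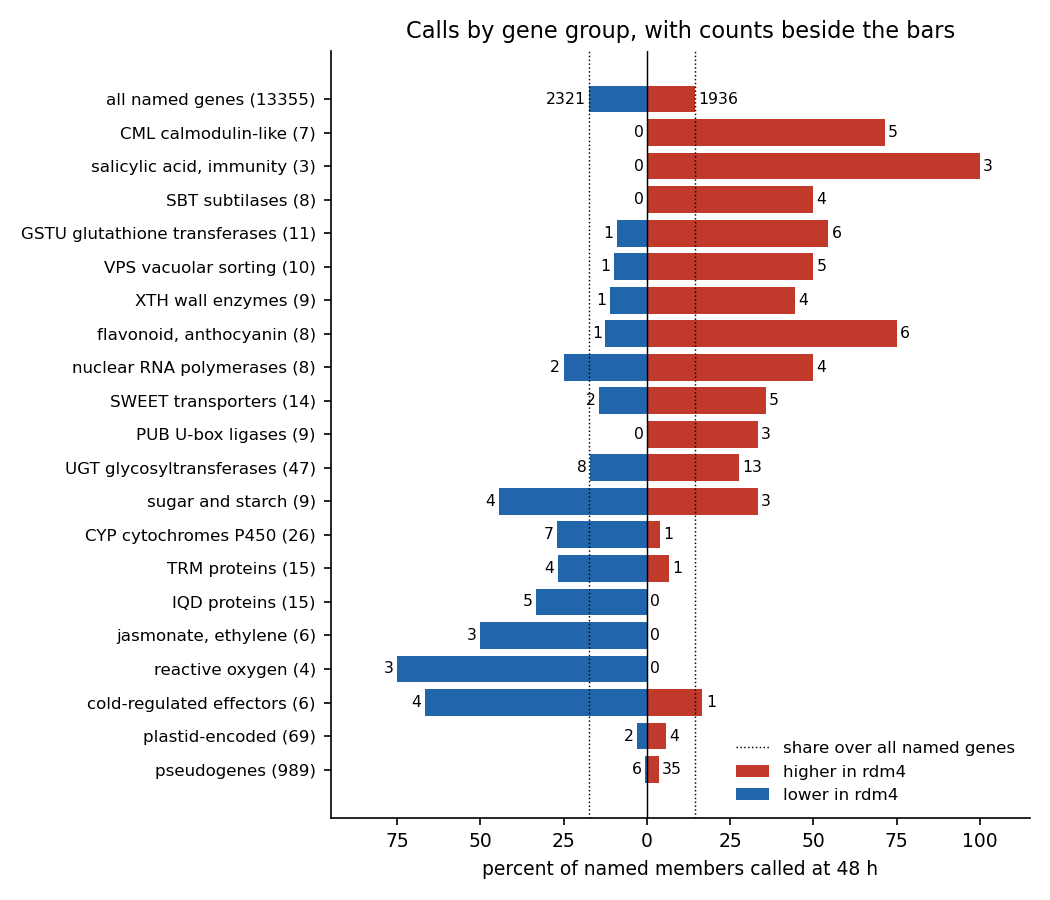
Percent of the named members of each gene group called higher (red, right) and lower (blue, left) in rdm4 at 48 h, with counts beside the bars and the number of named members in parentheses. The CYP bar counts all 26 genes of that symbol stem, with CYP71 and CYP59, which are not described as cytochromes P450. Dotted lines mark the shares over all named genes, 14.5% and 17.4%, which the CML, immunity and flavonoid groups exceed on the right and the cold-regulated effectors on the left.

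Genes that RefSeq classes as pseudogenes, which include copies of transposons, were called rarely. Of 989 such genes 35 were higher (3.54%) and 6 lower (0.607%), against 14.5% and 17.4% over all named genes. Of them 876 were dim over the arrays, against 4691 of 13355 genes in all. The higher count was 24 without WT replicate 1, 15 without WT replicate 2, 28 without rdm4 replicate 1 and 37 without rdm4 replicate 2, and the lower count was 2 to 4 without any 1 array. At least 2-fold, 6 were higher and 0 lower. AT2G14650 was at log2 levels of 5.39 and 5.60 in WT and 8.63 and 8.37 in rdm4, and AT4G10580 at 5.46 and 5.36 against 8.59 and 8.32. Their differences were 3.00 ± 0.10 and 3.04 ± 0.12, that of AT3G31970 was 2.89, and all 3 probe sets can read several near-identical sequences. AT2G04460, dim in WT at 4.33 and 4.16, was at 7.44 and 7.57 in rdm4. The remaining 2 were RSU1 at 1.82 and AT4G14610 at 1.03, both dim in WT, and AT3G31970 and AT4G14610 were named after their values were seen.

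Calls were spread over the genome. Among the nuclear chromosomes the share of named genes called ranged from 28.5% on chromosome 2 to 35.6% on chromosome 5, against 8.7% of plastid genes. In 130 consecutive blocks of 100 measured genes, 0 to 9 genes a block were called and at least 2-fold different, with a median of 3. Of 13212 pairs of neighbouring measured genes 23 had both members at least 2-fold different, 16 of them both higher, 3 both lower and the rest opposite. Such pairs include XTH18 with XTH19 at 4.13 and 1.48 on chromosome 4, AT1G66080 with AT1G66090 at 1.25 and 4.19 on chromosome 1, and AT5G52740, AT5G52750 and AT5G52760 in a row at 1.46, 2.75 and 3.98 on chromosome 5. Neighbours of like sequence can share probe signal, and this was not tested.

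Calls shared by 48 h and 0 h were more often of like sign than of opposite sign. Of the 3640 probe sets called higher at 48 h, 1441 (39.6%) were called higher and 454 (12.5%) lower at 0 h, and of the 4331 called lower, 1653 (38.2%) were called lower and 429 (9.91%) higher. Across probe sets, which are not independent replicates, the differences at both times correlated at r = 0.22 and rho = 0.32. The change of the genotype difference between 0 h and 48 h was called for 5053 probe sets (22.2%), 2153 upward (9.47%) and 2900 downward (12.7%), and it was at least 2-fold for 620 (2.73%) and 302 (1.33%). Of the 545 probe sets at least 2-fold higher at 48 h, 179 (32.8%) were called higher at 0 h too, 150 (27.5%) were called lower and 216 (39.6%) were not called. Of the 184 probe sets at least 2-fold lower, 123 (66.8%) were called lower at 0 h, 17 higher and 44 not. Before chilling 29.8% of all probe sets were called, 16.1% higher and 13.7% lower. The chilled plants were also older by the time of chilling, which cannot be told apart from the chilling itself.

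STZ and WRKY53 were lower in rdm4 before chilling and higher after it. STZ was at log2 levels of 9.16 and 9.11 in WT and 7.08 and 7.10 in rdm4 at 0 h, a difference of -2.04 ± 0.07, so that the genotypes had changed places at 48 h. The change of the difference was 4.28 ± 0.09 (limma, adjusted p = 3.54e-11), made of a change of -1.25 in WT and 3.03 in rdm4 over the same time. AT4G27280 went from 10.22 and 10.36 in WT and 7.88 and 7.73 in rdm4 at 0 h to 7.68 and 7.61 and to 10.85 and 10.87 at 48 h. Its change of 5.70 ± 0.10 was the largest of the named genes. AT5G52760, AT3G48640, AT1G66090 and AT1G72900 had changes of 5.44, 5.43, 4.93 and 4.80, each from a lower level in rdm4 at 0 h. RING1 and TET8 turned the same way, from -1.25 and -0.92 at 0 h to 1.44 and 1.48. In the CML stem 0 of 7 genes were called higher and 2 lower at 0 h, where the median was -0.14, and the change was called for 6. Over all named genes 26.8% were called at 0 h, 14.5% higher and 12.3% lower, and the change was called for 19.7%, upward for 8.36% and downward for 11.3%.

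XTH18, CML37, B120, GRX480, BZIP60 and CYP71B23 had differences within 0.4 of 0 at 0 h, of which XTH18 at 0.38 was called. Their differences at 48 h, between 1.42 and 4.13, were not present at that size before chilling, and the change was called for each. CML37 was at 3.65 and 3.69 in WT and 3.57 and 3.49 in rdm4 at 0 h. In WT it stood no higher at 48 h than at 0 h (0.05), while in rdm4 it was 3.04 higher. For BZIP60 these changes over time were 0.22 and 1.73.

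Several differences were of like size at both times. NRPC1 was 1.77 ± 0.09 higher in rdm4 at 0 h and 1.71 at 48 h, EXLA1 1.58 and 1.84, and RSU1 1.67 and 1.82. PDF1.2b was at -2.54 ± 0.15 and -2.95, AT5G48490 at -1.61 and -1.79 and SWEET4 at -1.36 and -1.04. For none of these 6 was the change of the difference called (limma, adjusted p from 0.0528 to 0.809), which does not show that the differences were equal. XTH19 had a larger difference before chilling, at 2.42, than at 48 h, at 1.48, and here the change of -0.94 ± 0.16 was called.

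**Figure D4:**
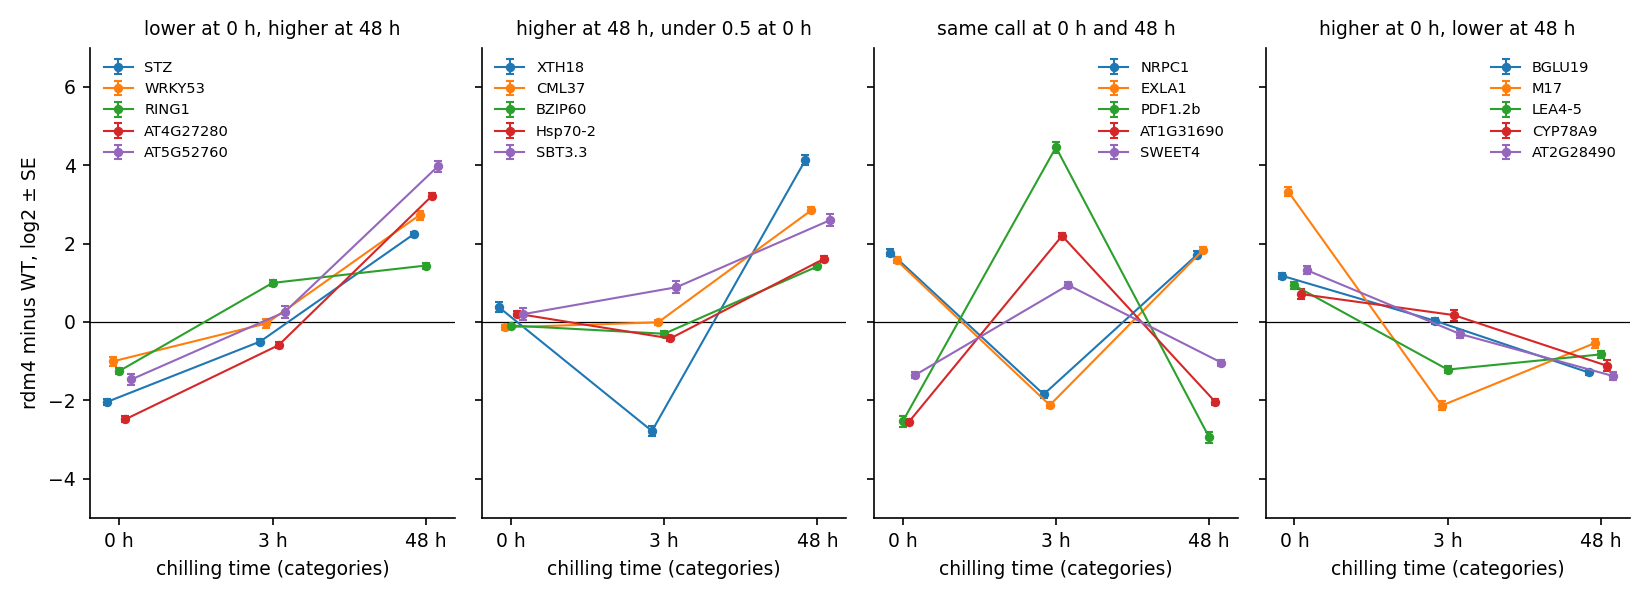
Genotype difference (rdm4 minus WT, log2 ± SE, 2 arrays a group, y axis) at 0, 3 and 48 h for 20 named genes in 4 panels, by their direction at 0 h and 48 h. STZ runs from -2.04 to 2.24 and BGLU19 from 1.18 to -1.29, while NRPC1 and PDF1.2b have like values at 0 h and 48 h and the opposite sign at 3 h.

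In the opposite direction, genes higher in rdm4 before chilling were lower after it. BGLU19 was at log2 levels of 7.61 and 7.50 in WT and 8.71 and 8.75 in rdm4 at 0 h, a difference of 1.18 ± 0.08, and its change to 48 h was -2.47 ± 0.11. M17, a late embryogenesis abundant gene, had a difference of 3.33 ± 0.11 at 0 h, when it was dim in WT, and of -0.54 ± 0.11 at 48 h, a change of -3.87 ± 0.16. LEA4-5, another gene of that kind, went from 0.93 to -0.83 and LEA18 from 1.47 to -0.60, with LEA18 dim in WT at 0 h. AT2G28490, AT1G04560 and AT1G22440 changed by -2.70, -2.61 and -2.50. AT4G30170 changed by -2.74, although its own difference of -0.40 at 48 h lost its call without rdm4 replicate 1 (limma, adjusted p = 0.0584). CYP78A9, CYP71B26, UGT73B1, UGT88A1 and GID1A were also called higher at 0 h and lower at 48 h. Root markers moved over the same arrays: PYK10 and AT5G17820 were higher in rdm4 by 1.32 and 1.77 at 0 h and at -0.05 and 0.11 without a call at 48 h, and their part in these changes was not tested.

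**Figure D5:**
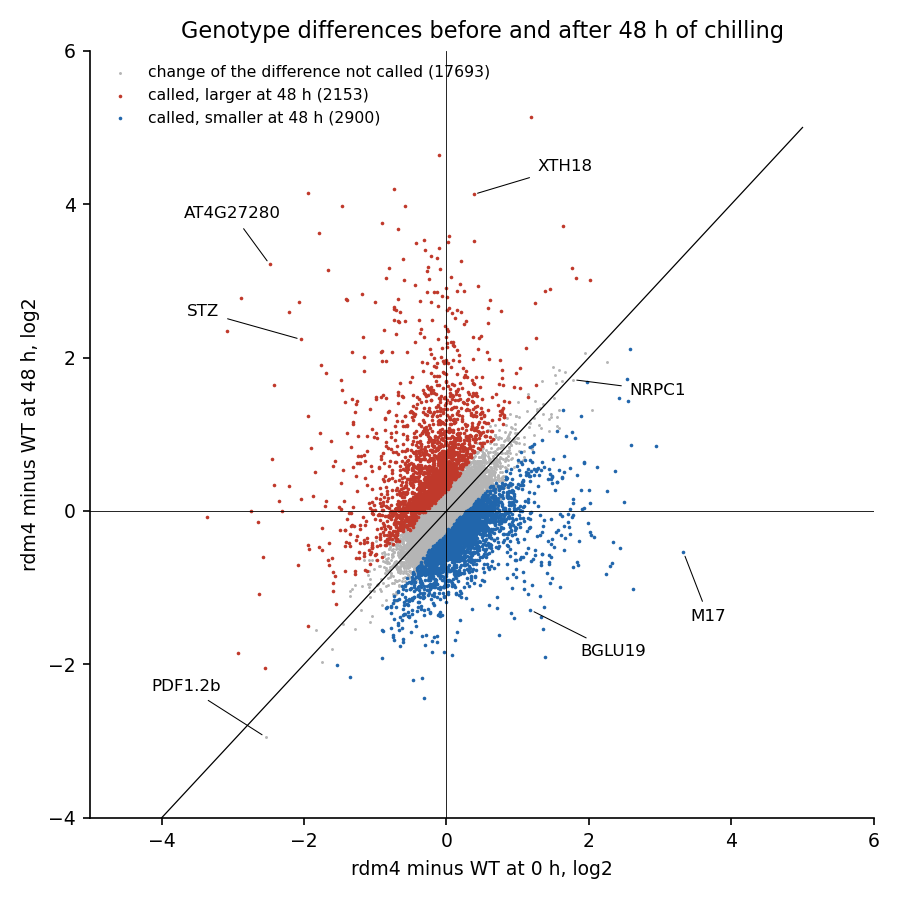
Genotype difference (rdm4 minus WT, log2) at 0 h (x axis) and 48 h (y axis) for 22746 probe sets. Colours mark the 2153 and 2900 probe sets whose difference was called larger (red) or smaller (blue) at 48 h, and the diagonal marks equal differences, with STZ in the upper left, M17 in the lower right and PDF1.2b and NRPC1 near the line.

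At 3 h, which shares no arrays with 48 h or 0 h, opposite signs to 48 h were more frequent than like ones. Of the 3640 probe sets called higher at 48 h, 1685 (46.3%) were called lower at 3 h, 384 (10.5%) higher and 1571 not. Of the 4331 called lower, 1948 (45%) were called higher at 3 h, 618 (14.3%) lower and 1765 not. Across probe sets the differences at 3 h and 48 h correlated at r = -0.36 and rho = -0.33. Called were 36.7% of probe sets, 17.6% higher and 19.1% lower. Of the 184 probe sets at least 2-fold lower in rdm4 at 48 h, 133 (72.3%) were called higher at 3 h and 22 lower, and of the 545 at least 2-fold higher, 286 (52.5%) were called lower and 81 higher. NRPC1 was at -1.85, EXLA1 at -2.12 and XTH18 at -2.78, and PDF1.2b was 4.46 higher in rdm4 at 3 h. CML37, SAG101 and CYP71B23, which had no call at 0 h, had none at 3 h either, at -0.01, -0.02 and 0.08. The 6 named cold-regulated effectors were all called higher in rdm4 at 3 h, with a median of 1.02 against -0.43 at 48 h and -0.58 at 0 h. Of all named genes 33.6% were called at 3 h, 16.2% higher and 17.4% lower. No gene here checks the genotype labels of either time. An exchange of those labels among the 3 h arrays, which was not tested, would turn the sign of each genotype difference given for 3 h. Likewise an exchange among the 48 h or 0 h arrays, also not tested, would turn the sign of each difference given for that time. Without the 3 h arrays in the fit, 7582 probe sets were called at 48 h, with the same 545 and 184 counts at 2-fold.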

How the data were processed

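The values are log2 expression per probe set, as deposited by the authors in the series matrix; the sources used here do not give their summarisation or normalisation. Of 22810 probe sets, 64 controls were left out and 22746 tested. GEO's platform table names 1 gene for 13513 probe sets, several for 503 and none for 8730. Of 13355 genes, 13286 matched the RefSeq table of assembly TAIR10.1, and 1547 carry a symbol there. For a gene with several probe sets the one with the highest mean stands. No sequence table was at hand, so promoters were not analysed here. A few results are not reported here.

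All 12 arrays were fitted as 6 group means with limma 3.58.1 in R 4.3.3 (lmFit, then eBayes), which left 6 residual degrees of freedom beside a prior of 5.97, with Benjamini-Hochberg adjustment over all tested probe sets and a threshold of 0.05. The fit was tested on simulated data. Tables and plots were made with Python 3.11.15, pandas 2.3.3 and matplotlib 3.10.9. At an unadjusted p under 0.05, 9729 probe sets differed at 48 h. A probe set is called dim where its group mean lies under the 30th percentile of that group. For counts of dim genes in a list or stem, the mean over all 12 arrays and its 30th percentile are used instead. Detection calls and scanned intensities were not used here, so precision is limited by the number of arrays.

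Named are the 15 largest called differences in each direction, the 6 largest changes against 0 h, and up to 4 called and 2 uncalled members of each list. Genes taken by size had to have 48 h groups that do not overlap and a higher group mean above the dim range. The 35 largest genes with a symbol in each direction were added after values were seen, as were BIK1, SMZ and the members given in family counts. A stem is a group of 6 or more genes whose symbols start alike. Of 509 members of 22 gene lists 76 were named on the array. Members, lists and groups were chosen with earlier results of these data known. Alternatives covered normalisation, dim probe sets, the variance model, the arrays in the fit, a replicate block, each array left out, the threshold and other probe sets.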

Additional observations from a re-analysis of the deposited data

Results flagged for a closer look

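Of 304 genes taken by the naming rules, 41 had a genotype difference called at 0 h and at 48 h in opposite directions, with the change between the times also called by limma. Over all 13355 singly annotated genes, 208 were called lower at 0 h and higher at 48 h, and 197 the reverse. The naming rules favour large differences at 48 h and large changes against 0 h. Counts among the 304 therefore cannot be weighed against those over all genes. In 25 of the 41 rdm4 was lower before chilling and higher after it. Among genes of signalling, defence and protein turnover, the log2 difference changed for STZ by 4.28, WRKY53 by 3.73, RING1 by 2.69, TET8 by 2.40, SRC2 by 1.81, ACA.l by 1.84, SGT1A by 1.66, PUB24 by 1.66 and CML38 by 1.38. Among the others with a symbol it changed for Fes1A by 1.77, SWEET2 by 1.78, ZCF37 by 1.82, UGT78D2 by 1.37, HYH by 1.89, VPS2.1 by 0.76 and IAA18 by 0.74. Among locus tags without a symbol it changed for AT1G66090 by 4.93, AT2G32030 by 4.56, AT5G52760 by 5.44, AT1G19020 by 4.66, AT1G24140 by 4.36, AT3G48640 by 5.43, AT1G78410 by 3.91, AT4G27280 by 5.70 and AT1G72900 by 4.80.

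In 16 genes rdm4 was higher before chilling and lower after it. Among genes of conjugation and oxidation the difference changed for UGT88A1 by -1.20, UGT73B1 by -1.43, CYP78A9 by -1.83, CYP71B26 by -1.41 and GSTU22 by -1.07. For others with a symbol the change was GR1 by -0.48, GH3.3 by -0.81, M17 by -3.87, XTH20 by -1.42, GID1A by -1.06, LEA4-5 by -1.76 and BGLU19 by -2.47, where GR1 lost its call at 48 h whichever of the 4 arrays at that time was left out. For locus tags it was AT4G30170 by -2.74, AT1G22440 by -2.50, AT1G04560 by -2.61 and AT2G28490 by -2.70, and AT4G30170 lost its call at 48 h without rdm4 replicate 1. All 3 named root markers were called higher in rdm4 at 0 h, with a median of 1.32, and 1 was at 48 h, a call lost whichever array of that time was left out. Their part in these changes was not tested. Groups of 2 arrays are too small for a single array to be tested as apart.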

How the results depend on the processing

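Calls at 48 h numbered 7971. Under the other settings they ran from 5692 at an adjusted p under 0.01 to 8496 with a trended, robust variance model, and the 2-fold counts of 545 and 184 were each within 1.5 times of those values throughout. Leaving out 1 array at 48 h gave 6073 to 6663 calls, 5899 to 6263 of them shared, and 16 to 21 of 304 named genes lost their call. The share of calls that were higher lay between 43.6% and 50.2%. Calls of the change against 0 h fell from 5053 to 3105 at an adjusted p under 0.01, and the downward ones from 2900 to 1640; the stricter threshold itself lowers them. They were 3842 to 4660 without any 1 array. The remodelling gene chr31 was at 1.13 and at -0.15 with its other probe set, and the cause was not tested. The labels speak of different growth chambers but do not tie a replicate number to one, so arrays of 1 number share only that number. Deviations of same-numbered 48 h arrays correlated at 0.17, and with a replicate block 8011 probe sets were called, 7826 of them shared. That block ended the call of 2 named genes and gave a call to 1. The 2 arrays a group limit the precision, and no detection calls were used for dim genes.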

Other observations

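The platform table describes 6 named genes as late embryogenesis abundant, M17 not among them. At 0 h all 6 were called higher in rdm4, with a median of 0.78 on the log2 scale, against 14.5% of all named genes. At 48 h the median was -0.16, 2 members were called higher and 2 lower, and the change was called for 5. The other members, AtLEA4-1 and LEA, were at -0.24 and -0.08 without a call. The 2 higher calls, AT2G46140 at 0.33 and AT2G44060 at 0.29, were at most 1 whichever 48 h array was left out.

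Further genes outside the groups above differed at 48 h. JAL23, a jacalin-related lectin gene, was at log2 levels of 4.69 and 4.54 in WT, a dim level, and 6.16 and 6.65 in rdm4. The methionine sulfoxide reductase genes MSRB9 and MSRB6 lay on opposite sides, at 1.64 ± 0.09 and -0.90 ± 0.08. BGLU28, a beta-glucosidase gene, was higher by 1.07 ± 0.11, and BETA-VPE, a vacuolar processing enzyme gene, was at 9.82 and 9.86 in WT and 8.94 and 8.90 in rdm4. UGT74B1, a glycosyltransferase of glucosinolate synthesis, was at 9.78 in both WT arrays and 8.91 and 9.09 in rdm4. ATG8H and ATG8D, autophagy genes, were higher by 0.61 and 0.43, the 2 called of 8 genes of the ATG stem (25% against 14.5% over all named genes).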
